A study of Homo sapiens with 12 samples.

Results

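A total of 58 well-expressed long intergenic noncoding RNAs (lincRNAs) were followed in HaCaT and TIGK keratinocytes before and after exposure to H2O2. They were chosen by their biotype and by their raw counts, as the autosomal lincRNAs of the deposited table that averaged at least 200 over the 12 libraries, after leaving out microRNA host genes and small nucleolar RNA host genes by their names. The deposited table held 58735 genes, of which 7446 were lincRNAs outside X and Y. Of these, 7400 remained without the host names and 4089 had no count in any library. Just inside the limit lay LINC00941, AC027329.1 and AC012313.1, with mean raw counts of 207, 206 and 202. Just outside it lay LINC00886, LINC01133 and AL355338.1, with 198, 195 and 194.5. MIR4435-2HG, a host gene whose hyphenated name the rule did not remove, was among the 58. So was LINC02001, which is named SNHG30 in GENCODE release 44. Small RNA genes also lay on the same strand within CYTOR, PVT1, NEAT1, MUC20-OT1 and EPB41L4A-AS1, among others.

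The study compared oral with skin keratinocytes under oxidative stress. HaCaT cells are skin keratinocytes that became immortal spontaneously, and TIGK cells are gingival keratinocytes immortalized with telomerase. Both were grown to full confluence in the same keratinocyte medium and were either left untreated or given 5 mM H2O2 for 3 h, which made 4 groups of 3 libraries. Polyadenylated RNA was sequenced, so lincRNAs without a poly(A) tail were not sampled evenly. Each body site was represented by 1 immortalized line, so the site and the line cannot be told apart. The labels spelled the added compound with a different last digit in each replicate, while their treatment protocol named H2O2 for all treated cultures.

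Long noncoding RNAs are transcribed by RNA polymerase II and act as RNA, without a protein product. Some build nuclear bodies, some hold back RNA-binding proteins, and many are turned over quickly in the nucleus, so that their level follows recent transcription and decay. In epithelial cells several of them accompany proliferation, differentiation and the answer to stress.

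The libraries held 30426401 to 49034244 counts each. The keratinocyte markers KRT5, KRT14, KRT6A, TP63 and ITGA6 were high in all 12 libraries, with 8629 normalized counts as the lowest value, that of TP63. A normalized count here is a raw count set to a common library size of 36274734 after TMM scaling. Of the fibroblast markers, COL1A1 stood at 294 to 668 normalized counts. DCN averaged 197 and 236 in untreated and treated TIGK and at most 4.91 in HaCaT, while COL3A1 and PDGFRB did not exceed 37.1. The melanocyte, endothelial and leukocyte markers reached at most 85 raw counts, in PMEL. The part of these genes in the lincRNA values was not tested. In the bulk libraries, fewer cells of a type and less RNA per cell cannot be told apart.

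The 58 lincRNAs took up 0.221% of all counts, and 4 of them, NORAD, MALAT1, AL161431.1 and NEAT1, held 58.8% of that share. Per kb of gene length the highest were AC245041.1 with 2987 normalized counts, NORAD with 2644, AL161431.1 with 2064, MALAT1 with 1571 and LNCAROD with 816, as means over all libraries. The gene lengths in the table ran from 697 to 22767 bases with a median of 3628. By identifier, 57 of the 58 were found in GENCODE release 44, all of them as long noncoding RNA, and 21 of these had 1 exon in their longest transcript. Their transcripts had a median GC content of 45.1% and a range of 27.8% to 61.6%. Of the 58, 35 overlapped another gene of the deposited annotation and 23 did not. The sources used here do not say if reads were counted by strand, so reads of a lincRNA and of a gene on the other strand cannot be told apart where the exons overlap. In 3 lincRNAs over 50% of the exon bases were shared with another gene of GENCODE release 44. These were MALAT1 with 83.7%, AC092171.2 with 100% and EPB41L4A-AS1 with 54.3%.

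**Figure D1:**
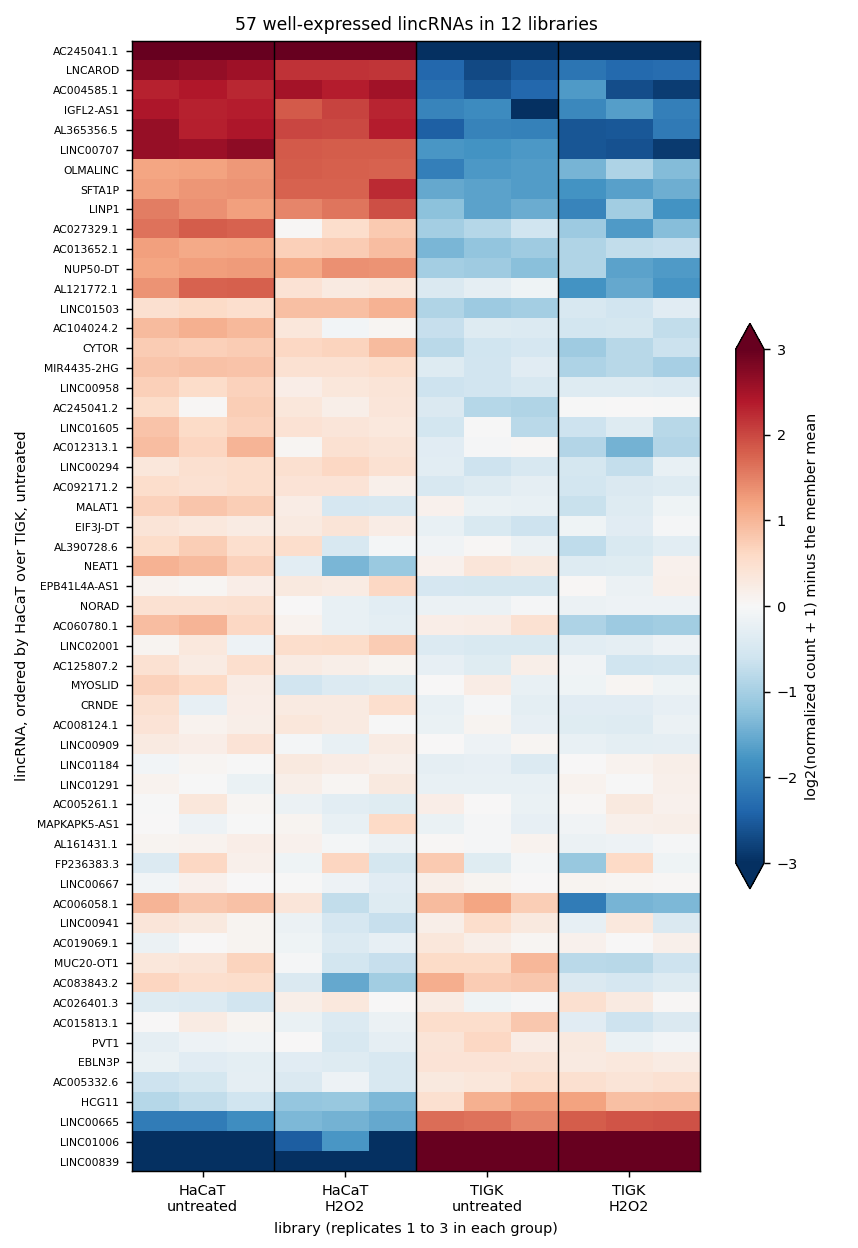
Heat map of 57 of the 58 lincRNAs (one line each) in the 12 libraries (one column each, replicates 1 to 3 within a group), with colour for log2 of the normalized count plus 1 minus the mean of that lincRNA. Colours end at 3 in either direction. The strongest contrast lies between the HaCaT and the TIGK columns, from AC245041.1 at the top, high in HaCaT, to LINC00839 at the bottom, which had 0 counts in HaCaT.

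The first comparison asked how each line answered H2O2. In HaCaT, 6 of the 58 lincRNAs rose and 18 fell at an edgeR adjusted p under 0.01. Over all 16618 genes tested, 18.9% rose and 15.2% fell, and among genes that met the same limit of 200 counts, 28.1% rose and 18.4% fell. The median log2 fold change of the 58 was -0.21, against 0.04 over all genes tested. The 560 other lincRNAs with a mean count from 10 to under 200 had a median of -0.21 as well, with 1.96% called higher and 9.82% called lower. In TIGK, 6 of the 58 rose and 9 fell, where 10.2% of all genes tested rose and 12.9% fell. Among genes that met the limit of 200 counts, 15.3% rose and 16.8% fell there. The shares of the 58, 10.3% and 15.5%, were no larger. The median there was -0.11, against 0.01 over all genes. In TIGK, 4.46% of the other lincRNAs fell and 1.25% rose. The fitted change was below 0 for 38 of the 58 in HaCaT and for 38 in TIGK.

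The responses of both lines rest on separate libraries and can be set side by side. LINC00707, MIR4435-2HG, MUC20-OT1, AC060780.1, AL121772.1, AC006058.1 and AC083843.2 fell in both, which was 38.9% of the falls in HaCaT and 77.8% of those in TIGK. LINC00665, LINC01503 and OLMALINC rose in both, 50% of the rises of either line. None rose in one line and fell in the other by this test, although AC013652.1 did with DESeq2, and 29 passed the limit in neither. The matching shares of all genes tested are not given here, so these shared calls describe the 58 only. The sign was shared by 72.4% of the 58 and by 73% of all genes tested. Pearson's r across the 58 was 0.619 and Spearman's rho 0.657, as a description only, since genes are not independent replicates.

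**Figure D2:**
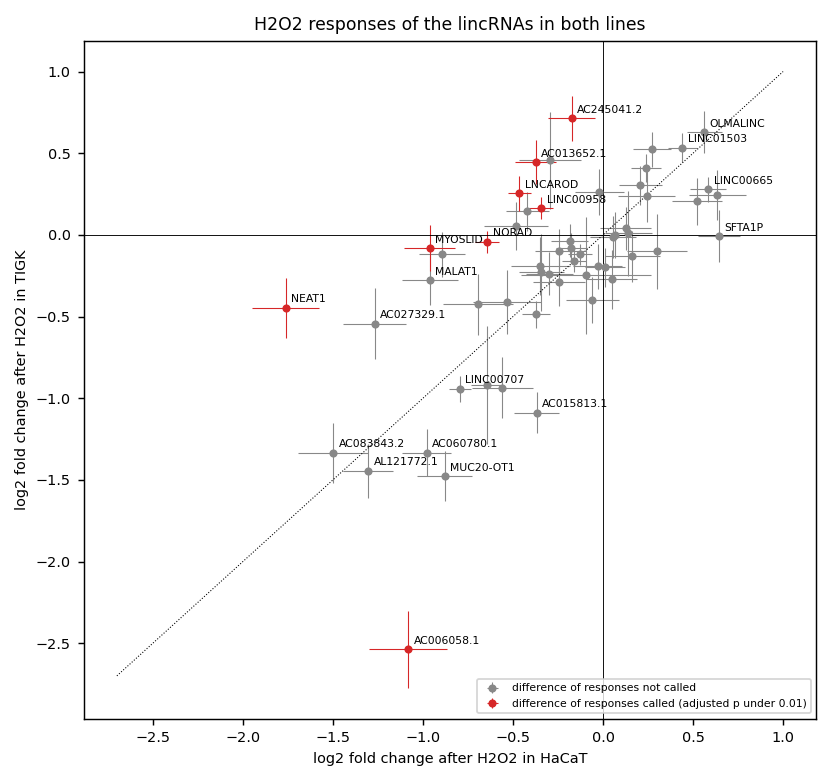
Scatter plot of log2 fold changes after H2O2 in HaCaT (horizontal) and TIGK (vertical) for 56 lincRNAs, with standard errors of the edgeR fit as bars and equal change as a dotted line. LINC00839 and LINC01006, with at most 10 raw counts in any HaCaT library, are left out. The red points, whose difference of responses passed the limit, lie above the line for NEAT1, NORAD, LINC00958, LNCAROD, AC245041.2, MYOSLID and AC013652.1, and below it for AC006058.1.

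NEAT1 and MALAT1 are neighbours on chromosome 11 and are the RNAs of nuclear bodies. NEAT1 is the scaffold of paraspeckles and is made as a short polyadenylated and a long isoform, and MALAT1 gathers in nuclear speckles. NEAT1 (chr11:65422774-65445540 on the plus strand, GRCh38) had 14779, 13727 and 11540 normalized counts in untreated HaCaT and 5709, 2761 and 3327 after H2O2. The treated and untreated HaCaT libraries did not overlap, and replicate 1 was the highest of the treated ones. The log2 fold change was -1.76 ± 0.19 (SE, n = 3 per group, edgeR adjusted p = 7.2e-07), the largest fall of the 58 in HaCaT. In TIGK NEAT1 stood at 7796, 9142 and 8744 before and 5462, 5566 and 7804 after H2O2. These ranges overlapped by a small margin, and the change of -0.45 ± 0.18 did not pass the limit (adjusted p = 0.064). It passed with the groups compared alone, at -0.45 (edgeR adjusted p = 0.0018). It also passed without HaCaT H2O2 replicate 1, which enters through the shared estimate of spread, with a change of -0.42 (adjusted p = 0.0069). Without the filter on low counts the change was smaller, at -0.41, while the edgeR adjusted p was 6.1e-10. No weight is put on that p-value, since the libraries overlap. The difference of the responses, TIGK minus HaCaT, was 1.32 ± 0.26 (adjusted p = 0.0026) and passed the limit in every alternative run.

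Before H2O2, NEAT1 was higher in HaCaT than in TIGK, by 0.64 ± 0.18 on the log2 scale (edgeR adjusted p = 0.0043). After H2O2 the order was turned, at -0.68 ± 0.18 for HaCaT minus TIGK (adjusted p = 0.0032), although the treated libraries of the lines overlapped. Both calls were lost with DESeq2, at adjusted p of 0.0346 and 0.0165. The untreated call was lost without HaCaT untreated replicate 1, HaCaT untreated replicate 2 or TIGK untreated replicate 1, with log2 differences from 0.56 to 0.62 (adjusted p from 0.0147 to 0.0228). The treated call was lost without HaCaT H2O2 replicate 2, HaCaT H2O2 replicate 3 or TIGK H2O2 replicate 3, with differences from -0.57 to -0.52 (adjusted p from 0.0125 to 0.0223).

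MALAT1 (chr11:65497688-65506516, plus strand) had 20992, 23064 and 21854 normalized counts in untreated HaCaT and 15262, 9197 and 9382 after H2O2. As for NEAT1, replicate 1 was the highest of the treated HaCaT libraries, and all 3 lay below the untreated ones. The fall was -0.96 ± 0.15 on the log2 scale (edgeR adjusted p = 6.2e-05). In TIGK the values were 14175, 11301 and 11103 before and 8272, 9906 and 11981 after, with overlapping ranges and a change of -0.28 ± 0.15 (adjusted p = 0.17). The difference of the responses, 0.68 ± 0.22, missed the limit (adjusted p = 0.046). Without HaCaT H2O2 replicate 1 it was 1.03 and passed (adjusted p = 0.0002). Untreated HaCaT was 0.85 ± 0.15 above untreated TIGK (adjusted p = 6.8e-05), and after H2O2 the difference of 0.17 ± 0.15 did not pass.

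The mature 3′ end of MALAT1 is cut by RNase P and closed by a triple helix in place of a poly(A) tail. The whole gene held 14 runs of at least 6 A. The longest of those in its last 1000 bases, of 13 A, ended 406 bases before the annotated 3′ end. It is shown in capitals, with its surroundings. The cut end was not mapped here, so this run may itself be part of the closed end. Neither a hold of oligo(dT) on the run nor its part in the counts was tested.
MALAT1, chr11:65506068-65506130 on the plus strand of GRCh38: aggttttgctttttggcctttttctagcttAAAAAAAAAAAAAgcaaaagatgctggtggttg

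**Figure D3:**
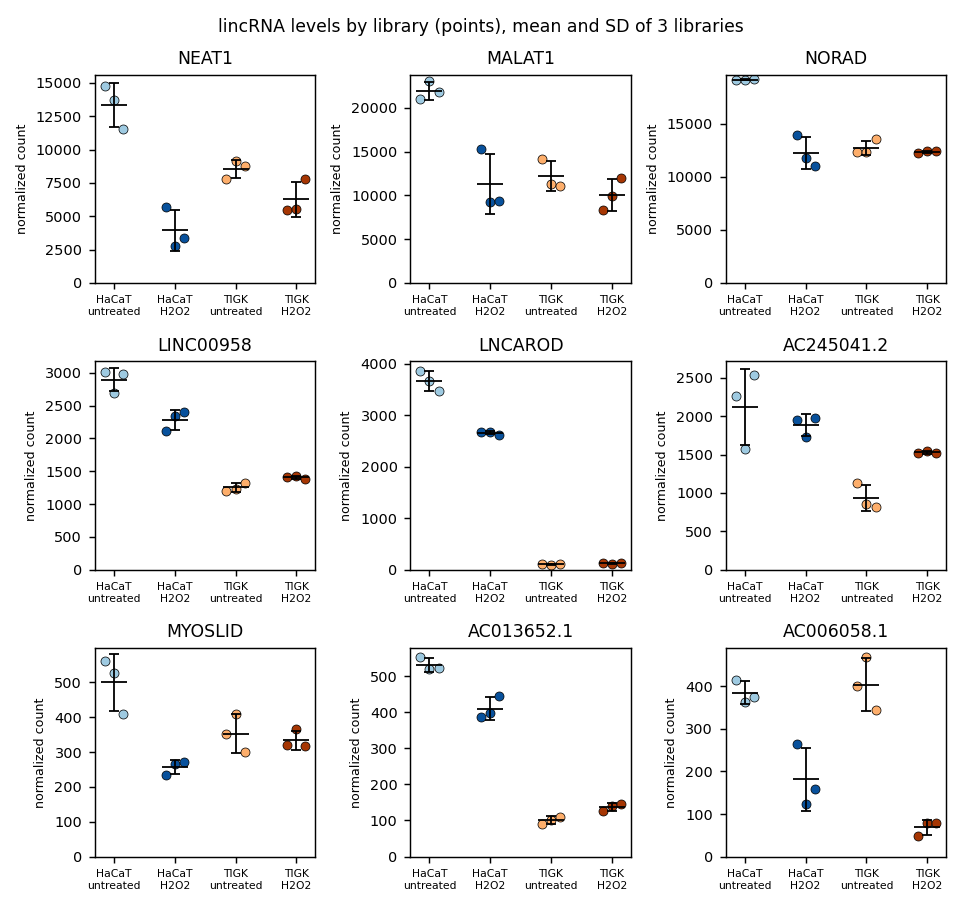
Normalized counts (vertical axes, from 0) of NEAT1, MALAT1, NORAD and of 6 other lincRNAs, by group. The difference of responses between the lines was called for each of them except MALAT1. Points are libraries, and bars are the mean and SD of 3 libraries. NEAT1, MALAT1 and NORAD show their highest values in untreated HaCaT, and AC006058.1 its lowest in treated TIGK.

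Of the 11 paraspeckle protein genes tested, 1 rose and 2 fell in HaCaT and 1 rose and 1 fell in TIGK after H2O2. Of all genes tested, 34.1% were called in HaCaT and 23.2% in TIGK in either direction, so the share of this list was no larger. RBM14, needed for paraspeckle assembly, rose by 0.37 in HaCaT and 0.28 in TIGK. SFPQ, a core paraspeckle protein, fell by 0.22 and 0.25. None of the 11 passed the test of a difference in response between the lines. The nuclear RNA decay genes, which encode the exosome and its adaptors, numbered 15, of which 2 rose and 2 fell in either line, near those shares. ZFC3H1, an adaptor that targets polyadenylated nuclear RNA to the exosome, fell by 0.55 in HaCaT, and EXOSC5, an exosome subunit, rose by 0.56.

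NORAD is an abundant cytoplasmic RNA that is induced by DNA damage and binds Pumilio proteins through many copies of a short element. NORAD (chr20:36045622-36050960, minus strand) had 19080, 19115 and 19201 normalized counts in untreated HaCaT and 13902, 11803 and 11038 after H2O2. It fell by 0.64 ± 0.07 on the log2 scale (edgeR adjusted p = 6e-07), and no treated library reached an untreated one. In TIGK it had 12327, 12328 and 13511 before and 12240, 12393 and 12433 after. These values overlapped and differed by -0.04 ± 0.07 (adjusted p = 0.66). The difference of the responses was 0.60 ± 0.10 (adjusted p = 0.00038). Untreated HaCaT lay 0.59 ± 0.07 above untreated TIGK (adjusted p = 2.5e-07), and after H2O2 the lines differed by -0.01 ± 0.07. PUM2, which encodes a Pumilio protein, fell by 0.20 in HaCaT.

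A search of the gene for the Pumilio element, TGTANATA on the sense strand, found 15 copies in NORAD between bases 761 and 4599 of its 5339. Of the other lincRNAs, HCG11 (chr6:26521709-26527404, plus strand) had 16 copies, which is 2.81 per kb in either gene, while 41 of the 57 with a transcript had none. Among 18661 long noncoding RNA genes of GENCODE release 44, 11.6% had any copy and 99.7% had a lower density than NORAD. A match is a description of the letters and shows no binding. The windows below, from GRCh38, show elements of NORAD and the matching ones of HCG11, with the element in capitals, because their likeness bears on how the reads of both genes can be counted.
NORAD element 1, chr20:36050182-36050211 (minus strand): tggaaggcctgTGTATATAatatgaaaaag
HCG11 element 1, chr6:26522457-26522486 (plus strand): cggaaggcctgTGTATATAatatgaaaaag
NORAD element 3, chr20:36049702-36049731 (minus strand): aaatcacatttTGTAAATAcctttttgtta
HCG11 element 2, chr6:26522933-26522962 (plus strand): aaaccacatttTGTAAATAtctttttgtta
NORAD element 6, chr20:36049118-36049147 (minus strand): aaataccacttTGTAAATAtctttttgcta
HCG11 element 6, chr6:26523526-26523555 (plus strand): aaataccaattTGTAAATAtctttttgcta
NORAD element 12, chr20:36047668-36047697 (minus strand): ttactgtgctgTGTATATAgtgtatataag
HCG11 element 13, chr6:26524962-26524991 (plus strand): ttactgtgctgTGTATATAagcagacatag
NORAD element 14, chr20:36047350-36047379 (minus strand): caatgctactgTGTATATAatggaaaactt
HCG11 element 15, chr6:26525278-26525307 (plus strand): caatactactgTGTATATAatggaaaactt

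The NORAD and HCG11 transcripts aligned over 5257 bases with 93.8% identity. How reads that map to both places were counted is not given in the sources used here, so the level of HCG11 is uncertain. HCG11 had 171, 187 and 204 normalized counts in untreated HaCaT and 138, 141 and 123 after H2O2. In TIGK it had 438, 657 and 740 before and 725, 586 and 597 after. All TIGK values lay above all HaCaT values, opposite to NORAD in the untreated lines. The log2 difference of HaCaT minus TIGK was -1.71 ± 0.16 untreated (edgeR adjusted p = 1.7e-08) and -2.25 ± 0.17 after H2O2 (adjusted p = 6.5e-10). The HCG11 count was 0.897% to 1.2% of the NORAD count in HaCaT and 3.56% to 5.92% in TIGK. The fall of HCG11 in HaCaT, -0.48 ± 0.18, missed the limit (adjusted p = 0.032) and passed without TIGK untreated replicate 1 (adjusted p = 0.0073).

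**Figure D4:**
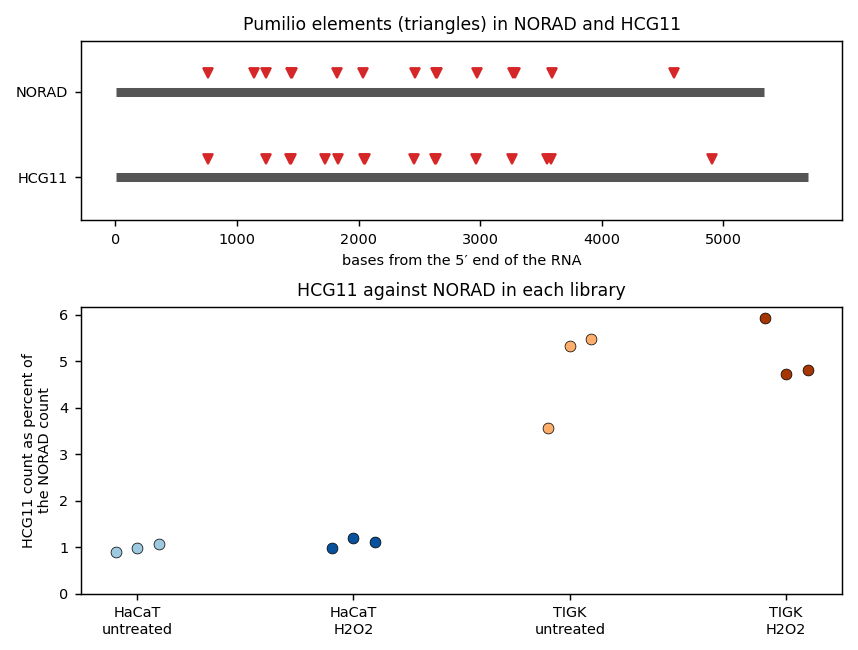
Upper panel, positions of the Pumilio elements (triangles) along NORAD and HCG11 in bases from the 5′ end. Lower panel, the HCG11 count as percent of the NORAD count in each library, at 0.897% to 1.2% in HaCaT and 3.56% to 5.92% in TIGK.

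The further lincRNAs of known growth or differentiation roles behaved unlike one another. LINC00958, an RNA described in bladder and squamous carcinomas and next to TEAD1, had 3016, 2688 and 2988 normalized counts in untreated HaCaT and 2108, 2348 and 2399 after H2O2. All treated HaCaT values were lower, with a change of -0.34 ± 0.07 (edgeR adjusted p = 0.00038). In TIGK it had 1203, 1232 and 1324 before and 1405, 1421 and 1388 after, so all treated values were higher, at 0.16 ± 0.07 (adjusted p = 0.069). The responses differed by 0.51 ± 0.10 (adjusted p = 0.0018). TEAD1, which encodes a partner of YAP, fell by 0.74 in HaCaT and 0.85 in TIGK. The deposited table gives the symbol LINC00941 to 2 overlapping genes on the same strand. The one among the 58 is ENSG00000285517, which has no symbol in GENCODE release 44, and the other had 0 counts in all libraries. ENSG00000285517, called LINC00941 here as in the table, had 254, 243 and 209 in untreated HaCaT and 176, 140 and 122 after H2O2. Its fall of 0.69 ± 0.19 (adjusted p = 0.0062) lost its call without HaCaT H2O2 replicate 2, HaCaT H2O2 replicate 3, HaCaT untreated replicate 1 or HaCaT untreated replicate 2, at changes from -0.70 to -0.58 (adjusted p from 0.0185 to 0.0297). In TIGK, LINC00941 had 226, 285 and 245 normalized counts before and 167, 248 and 147 after H2O2, with overlap and no call.

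CRNDE, first described in colorectal tumours, did not pass in either response. It was 0.66 ± 0.15 higher in treated HaCaT than in treated TIGK (edgeR adjusted p = 0.00087), and its untreated difference of 0.37 (adjusted p = 0.041) passed without HaCaT untreated replicate 2, at 0.53 (adjusted p = 0.0028). PVT1, the neighbour of MYC, had 358, 388 and 399 normalized counts in untreated HaCaT and 558, 661 and 499 in untreated TIGK. Its difference of -0.59 ± 0.14 (adjusted p = 0.0012) was -0.45 without TIGK untreated replicate 2 and then missed the limit (adjusted p = 0.0159). After H2O2, PVT1 in TIGK had 524, 375 and 406, a change of -0.40 ± 0.14 that missed the limit (adjusted p = 0.033) and passed without TIGK H2O2 replicate 1, at -0.55 (adjusted p = 0.0092). MYC itself rose by 0.76 in TIGK and changed by -0.14 in HaCaT (adjusted p = 0.026).

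CYTOR and MIR4435-2HG are copies of one gene on the arms of chromosome 2, both tied to cell growth and migration. Their longest transcripts aligned over 6640 bases with 99.4% identity, so their counts are uncertain one against the other. MIR4435-2HG had 1279, 1332 and 1307 normalized counts in untreated HaCaT and 995, 987 and 1040 after H2O2. It had 548, 485 and 569 in untreated TIGK and 377, 404 and 362 after H2O2. Within each line the groups did not overlap, and the changes were -0.37 ± 0.08 (edgeR adjusted p = 0.00077) and -0.49 ± 0.09 (adjusted p = 0.00021). CYTOR had 896, 869 and 892 before and 817, 843 and 1016 after in HaCaT, and 301, 348 and 373 before and 253, 296 and 337 after in TIGK. Its values overlapped in both lines, at 0.01 ± 0.11 and -0.20 ± 0.12. The CYTOR count was 65.2% to 70.1% of the MIR4435-2HG count in untreated HaCaT and 82.1% to 97.7% after H2O2, but 54.9% to 71.8% and 67.1% to 93.2% in TIGK. Both were higher in HaCaT than in TIGK when untreated, by 1.38 ± 0.12 for CYTOR and 1.29 ± 0.08 for MIR4435-2HG.

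The annotated promoters of the pair show the same copying. In the windows below, 300 bases from RefSeq on GRCh38.p14 that end 50 bases after the start, capitals mark the AP-1 site TGACTCA in either orientation, which Fos and Jun proteins bind. CYTOR held it 19 and 9 bases before its start. The MIR4435-2HG window lies further upstream on the shared sequence and ends just after the first of these sites, 40 bases after its own start. Such a site was found in 4.95% of 35116 promoters and in 6 of the 26 lincRNAs with a promoter in the table. The first share is per promoter and the second per lincRNA with a site in any of its promoters, so they differ in unit. CYTOR and MIR4435-2HG, which share the copied sequence, are both among the 6.
CYTOR, chr2:87455177-87455476 (plus strand): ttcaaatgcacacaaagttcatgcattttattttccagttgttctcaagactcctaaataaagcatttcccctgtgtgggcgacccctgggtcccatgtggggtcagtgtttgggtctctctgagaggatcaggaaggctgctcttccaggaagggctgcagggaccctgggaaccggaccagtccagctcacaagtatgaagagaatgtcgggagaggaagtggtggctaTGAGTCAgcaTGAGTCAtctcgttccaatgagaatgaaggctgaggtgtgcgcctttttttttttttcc
MIR4435-2HG, chr2:111495112-111495411 (minus strand): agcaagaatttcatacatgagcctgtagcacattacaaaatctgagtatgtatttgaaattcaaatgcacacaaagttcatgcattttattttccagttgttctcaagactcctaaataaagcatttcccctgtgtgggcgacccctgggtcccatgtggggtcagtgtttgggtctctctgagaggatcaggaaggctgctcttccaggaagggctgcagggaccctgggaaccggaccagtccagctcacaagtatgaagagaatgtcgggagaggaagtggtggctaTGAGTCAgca

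The lincRNAs that fell in both lines included the largest falls in TIGK. AC006058.1 (chr3:44117299-44122365, plus strand), an unnamed lincRNA, had 401, 469 and 344 normalized counts in untreated TIGK and 47.6, 78 and 80 after H2O2. In HaCaT it had 415, 364 and 376 before and 265, 122 and 158 after. The treated libraries lay below the untreated ones in both lines, and the changes were -2.54 ± 0.24 in TIGK (edgeR adjusted p = 1.5e-07) and -1.08 ± 0.22 in HaCaT (adjusted p = 0.00048). It was the only one of the 58 with a called difference of responses below 0, at -1.46 ± 0.32 (adjusted p = 0.0056). That call was lost when any single library other than HaCaT H2O2 replicate 2, HaCaT H2O2 replicate 3 or TIGK untreated replicate 3 was left out, at values from -1.52 to -1.02 (adjusted p from 0.0113 to 0.0255).

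AL121772.1 fell from 494, 658 and 669 to 259, 233 and 243 normalized counts in HaCaT and from 143, 159 and 177 to 54.5, 65.7 and 55.4 in TIGK. The falls were 1.30 ± 0.14 and 1.44 ± 0.17, and its neighbour PYGB, the brain form of glycogen phosphorylase, fell by 0.54 and 0.88. AC083843.2 went from 312, 283 and 286 to 147, 68.8 and 96.1 in HaCaT and from 428, 339 and 351 to 149, 141 and 154 in TIGK, at -1.50 ± 0.19 and -1.33 ± 0.18. Treated HaCaT was the more scattered group, with replicate 1 again the highest. The treated lines differed by -0.50 in AC083843.2 (edgeR adjusted p = 0.032), and by -0.88 without HaCaT H2O2 replicate 1 (adjusted p = 0.00038).

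MUC20-OT1, a transcript that overlaps MUC20, had 790, 785 and 1044 normalized counts in untreated TIGK and 302, 295 and 341 after H2O2. It fell by 1.48 ± 0.15 in TIGK (edgeR adjusted p = 6e-07) and by 0.88 ± 0.15 in HaCaT (adjusted p = 0.00013), with no overlap of groups in either line. AC060780.1 had 337, 343 and 403 in untreated TIGK and 154, 136 and 140 after, a fall of 1.33 ± 0.14, and fell by 0.98 ± 0.14 in HaCaT. Its neighbour NBR1, an autophagy receptor that overlaps it on the other strand, rose by 0.21 in HaCaT and 0.33 in TIGK. AC060780.1 also overlaps BRCA1 on the same strand, and 6.64% of its exon bases are shared with BRCA1 or NBR1 in GENCODE release 44. LINC00707, described in several carcinomas, had 8840, 8543 and 9314 in untreated HaCaT and 5214, 5095 and 5089 after, and 432, 418 and 436 in untreated TIGK and 244, 234 and 196 after. Its replicates lay close together, and its falls of 0.79 ± 0.06 and 0.94 ± 0.08 gave a difference of responses of -0.15 ± 0.10 that did not pass (adjusted p = 0.37).

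None of the 6 rises in either line exceeded 1 on the log2 scale, whereas 5 falls in HaCaT and 6 in TIGK did. Over all genes tested, 1.02% rose and 4.25% fell by more than this in HaCaT, and 0.824% and 2.91% in TIGK, so called falls of this size outnumbered the rises there too. OLMALINC, a neighbour of the fatty acid desaturase gene SCD, had 1019, 1033 and 1098 normalized counts in untreated HaCaT and 1573, 1552 and 1529 after H2O2. It had 108, 134 and 139 in untreated TIGK and 171, 236 and 181 after. No groups overlapped, and the rises were 0.56 ± 0.10 (edgeR adjusted p = 0.00015) and 0.63 ± 0.13 (adjusted p = 0.0009). SCD changed by -0.12 in HaCaT and -0.20 in TIGK, the latter past the limit (adjusted p = 0.0044). LINC01503, known from squamous carcinoma, rose by 0.44 ± 0.08 in HaCaT, from 1081, 1169 and 1100 to 1459, 1466 and 1621. In TIGK it rose by 0.53 ± 0.09, from 420, 368 and 383 to 560, 521 and 612.

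LINC00665 was mainly a TIGK lincRNA, with 2130, 2056 and 1842 normalized counts before and 2353, 2459 and 2502 after H2O2. In HaCaT it had 155, 154 and 183 before and 261, 247 and 227 after. The groups of either line were apart, at 0.58 ± 0.10 in HaCaT (edgeR adjusted p = 0.00014) and 0.28 ± 0.08 in TIGK (adjusted p = 0.0073). The TIGK call was lost without any of the treated TIGK libraries and without TIGK untreated replicate 2 or 3, one at a time, with changes from 0.22 to 0.32 (adjusted p from 0.0107 to 0.0473). The promoters of OLMALINC and LINC00665 both held the antioxidant response element TGACNNNGC, in capitals below, which NRF2 can bind. They are shown because these lincRNAs rose in both lines under an oxidant. On either strand, the letters occur in 13.4% of all 35116 promoters, counted per promoter. Counted per lincRNA in any of its promoters, they occur in 9 of the 26 lincRNAs with one. The other 7 were MALAT1, NORAD and MYOSLID, which fell in HaCaT, and LINP1, LINC00294, AC008124.1 and EIF3J-DT, which had no call in either response. They lay 123 bases before the start of OLMALINC and 137 before that of LINC00665, and no binding was measured.
OLMALINC, chr10:100373326-100373625 (plus strand, GRCh38.p14, RefSeq): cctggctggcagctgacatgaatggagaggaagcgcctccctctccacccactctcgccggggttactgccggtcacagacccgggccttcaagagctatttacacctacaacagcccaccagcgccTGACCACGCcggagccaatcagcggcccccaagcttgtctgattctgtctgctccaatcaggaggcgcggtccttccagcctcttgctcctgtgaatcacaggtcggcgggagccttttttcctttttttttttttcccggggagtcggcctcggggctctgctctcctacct
LINC00665, chr19:36331669-36331968 (minus strand, GRCh38.p14, RefSeq): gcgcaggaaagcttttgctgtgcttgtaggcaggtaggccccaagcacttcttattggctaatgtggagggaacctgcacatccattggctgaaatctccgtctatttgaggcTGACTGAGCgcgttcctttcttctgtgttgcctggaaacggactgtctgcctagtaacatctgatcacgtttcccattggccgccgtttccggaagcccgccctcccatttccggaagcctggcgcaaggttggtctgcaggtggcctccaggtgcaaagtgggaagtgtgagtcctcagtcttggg

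SFTA1P, LINC02001 and AC026401.3 rose past the limit in HaCaT and had no call in TIGK, and for none of them was the difference of responses called, at -0.65 ± 0.20, -0.32 ± 0.20 and -0.39 ± 0.22 (edgeR adjusted p = 0.037, 0.34 and 0.28). SFTA1P, a surfactant-associated pseudogene RNA, had 690, 726 and 744 normalized counts in untreated HaCaT and 1001, 999 and 1375 after H2O2, a rise of 0.65 ± 0.12 (edgeR adjusted p = 0.00019). In TIGK it stayed between 83.5 and 105, at -0.01 ± 0.16. LINC02001, which contains the small nucleolar RNA gene SNORD7, rose by 0.52 ± 0.14 in HaCaT (adjusted p = 0.0044). That call was lost without HaCaT H2O2 replicate 2 or 3, HaCaT untreated replicate 1 or 3, TIGK H2O2 replicate 2 or 3 as well as TIGK untreated replicate 2, at changes from 0.42 to 0.52 (adjusted p from 0.0101 to 0.0295). AC026401.3, which lies within NDE1 on the same strand, rose by 0.63 ± 0.16 (adjusted p = 0.0029). It lost the call without HaCaT H2O2 replicate 1 or 2 or HaCaT untreated replicate 3, at 0.52 to 0.60 (adjusted p from 0.0104 to 0.0245).

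AC245041.2, LINC01184 and EPB41L4A-AS1 rose past the limit in TIGK and had no call in HaCaT. The difference of responses was called for AC245041.2 and not for LINC01184 (0.17, edgeR adjusted p = 0.4) or EPB41L4A-AS1 (0.25, adjusted p = 0.3). AC245041.2 (chr10:47908064-47991850, minus strand) had 1126, 853 and 817 normalized counts in untreated TIGK and 1514, 1546 and 1526 after H2O2, a rise of 0.71 ± 0.14 (edgeR adjusted p = 0.00047). In HaCaT it had 2256, 1569 and 2539 before and 1949, 1722 and 1980 after, with overlap and a change of -0.17 ± 0.13. The difference of the responses was 0.89 ± 0.19 (adjusted p = 0.0048). This call was lost without HaCaT H2O2 replicate 2, HaCaT untreated replicate 1 or 3, TIGK H2O2 replicate 1 or 2, as well as TIGK untreated replicate 2 or 3, at 0.74 to 0.94 (adjusted p from 0.0104 to 0.0163). LINC01184, divergent from the ion transporter gene SLC12A2, rose by 0.41 ± 0.08 in TIGK, where SLC12A2 fell by 0.62. EPB41L4A-AS1, which contains SNORA13, rose by 0.52 ± 0.11 in TIGK, and its HaCaT change of 0.27 missed the limit (adjusted p = 0.04).

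In HaCaT, 11 lincRNAs fell without a call in TIGK, among them NEAT1, MALAT1, NORAD, LINC00958 and LINC00941 described above. Of these 11, the difference of responses was called for NEAT1, NORAD, LINC00958, LNCAROD and MYOSLID and not for the others. LNCAROD, an activator of DKK1, had 3858, 3666 and 3472 normalized counts in untreated HaCaT and 2676, 2676 and 2622 after H2O2. In TIGK it had 115, 90.2 and 102 before and 130, 117 and 121 after. All treated values lay below the untreated ones in HaCaT and above them in TIGK, at -0.46 ± 0.07 (edgeR adjusted p = 1.7e-05) and 0.25 ± 0.11 (adjusted p = 0.074), and the responses differed by 0.72 ± 0.13 (adjusted p = 0.00098). AC027329.1 had 442, 503 and 490 in untreated HaCaT and 146, 204 and 244 after H2O2, a fall of 1.27 ± 0.18. In TIGK it changed by -0.54 ± 0.22 (adjusted p = 0.058), while its neighbour FST, which encodes the activin antagonist follistatin, changed by -0.71 in HaCaT and -1.70 in TIGK. AC245041.1 fell by 0.64 ± 0.09 in HaCaT, AC104024.2 by 0.90 ± 0.13 and AC005261.1 by 0.42 ± 0.12 (adjusted p = 0.0082). In TIGK, AC245041.1 had at most 22 raw counts in a library and changed by -0.92 without a call. Its difference of responses, -0.275, was not called. The call of AC005261.1 was lost without HaCaT H2O2 replicate 2 or 3 or HaCaT untreated replicate 2 or 3, at -0.46 to -0.31 (adjusted p from 0.013 to 0.0602). The difference of the responses of AC104024.2, 0.78 ± 0.19, missed the limit (adjusted p = 0.011) and passed with DESeq2 (adjusted p = 0.00097), and without HaCaT H2O2 replicate 1 (0.96, adjusted p = 0.0019) or TIGK H2O2 replicate 3 (0.91, adjusted p = 0.0093).

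MYOSLID, an RNA first known from smooth muscle, had 563, 528 and 409 normalized counts in untreated HaCaT and 235, 265 and 271 after H2O2. It had 352, 410 and 299 in untreated TIGK and 320, 365 and 317 after. The treated HaCaT libraries stood apart below the untreated ones, while the TIGK groups overlapped, at -0.96 ± 0.14 (edgeR adjusted p = 2.5e-05) and -0.08 ± 0.14. The responses differed by 0.88 ± 0.20 (adjusted p = 0.0066), a call lost without HaCaT H2O2 replicate 2, HaCaT untreated replicate 1 or 2, TIGK H2O2 replicate 1 or 2 as well as TIGK untreated replicate 1 or 3, at 0.78 to 0.96 (adjusted p from 0.01 to 0.0246). Its nearest protein-coding gene, the transcription factor gene KLF7, went the same way, with -1.36 in HaCaT (adjusted p = 4.7e-10) and -0.09 in TIGK (adjusted p = 0.44).

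AC013652.1 had 554, 519 and 521 normalized counts in untreated HaCaT and 386, 399 and 445 after H2O2. In TIGK it had 89.5, 103 and 111 before and 125, 140 and 146 after, so that it was lower in all treated HaCaT and higher in all treated TIGK libraries. Neither response passed (-0.37 ± 0.11 with edgeR adjusted p = 0.011, and 0.44 ± 0.14 with 0.016), but their difference of 0.82 ± 0.18 did (adjusted p = 0.0052). With DESeq2 both responses passed, at -0.39 (adjusted p = 0.0026) and 0.45 (adjusted p = 0.0088). The HaCaT fall also passed with RLE scaling, with the groups compared alone and without mitochondrial genes (adjusted p = 0.009, 0.0064 and 0.0064), and, at -0.41, without TIGK H2O2 replicate 2, TIGK H2O2 replicate 3 or TIGK untreated replicate 2 (adjusted p from 0.0084 to 0.0092). The difference lost its call without HaCaT untreated replicate 1, 2 or 3, TIGK H2O2 replicate 2 or 3 as well as TIGK untreated replicate 1, at 0.74 to 0.87 (adjusted p from 0.01 to 0.0184).

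Over the 58, 7 differences of responses were above 0 and 1 was below it, where 2.32% of all genes tested were above and 2.98% below. Among genes that met the limit of 200 counts, 3.33% were above and 4.45% below. In all 7 lincRNAs the fitted change in HaCaT was below 0, though not called for AC245041.2 and AC013652.1. That it was lower than in TIGK follows from the sign of the difference. The number of differences above 0 was 4 without HaCaT untreated replicate 1 and 4 without TIGK H2O2 replicate 2. The median difference of the 58 was 0.01.

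In TIGK, AC015813.1 and AC012313.1 fell past the limit without a call in HaCaT. AC015813.1 had 485, 492 and 594 normalized counts in untreated TIGK and 268, 219 and 253 after H2O2, a fall of 1.09 ± 0.12 (edgeR adjusted p = 2.1e-06), against -0.37 ± 0.13 in HaCaT (adjusted p = 0.022). Their difference of -0.72 ± 0.18 missed the limit (adjusted p = 0.012) but passed with DESeq2 (adjusted p = 0.0028). AC012313.1 fell by 0.94 ± 0.19 in TIGK (adjusted p = 0.0007), and in HaCaT its change of -0.56 ± 0.17 was just outside the limit (adjusted p = 0.011). The HaCaT change passed with DESeq2, RLE scaling, the groups compared alone, no filter on low counts and no mitochondrial genes, at -0.60 to -0.57 (adjusted p from 0.0029 to 0.0092). It also passed without HaCaT untreated replicate 2, TIGK H2O2 replicate 2, TIGK H2O2 replicate 3 or TIGK untreated replicate 1, at -0.66 to -0.56 (adjusted p from 0.0055 to 0.0099). ZNF584, which overlaps it on the other strand, fell by 0.61 in HaCaT and 0.69 in TIGK.

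The next comparison set the lines against each other. Untreated, 34 of the 58 lincRNAs were higher in HaCaT and 9 in TIGK, where 29.1% of all genes tested were higher in HaCaT and 30.8% in TIGK. After H2O2 the numbers were 30 and 8, against 30.2% and 29.8% of all genes. Among genes that met the limit of 200 counts, 35.5% were higher in HaCaT and 32.8% in TIGK untreated. After H2O2 these shares were 37.5% and 30.9%. The rule bears on the counts of the 58, because a mean of 200 over all libraries can be met through one line alone. In 19 lincRNAs the TIGK mean was under 200, in 7 the HaCaT mean was, and 32 reached 200 in both lines. Of these 32, 15 were higher in untreated HaCaT and 3 in untreated TIGK. The counts describe the 58 and are no evidence about lincRNAs at large. The median log2 difference of HaCaT minus TIGK was 0.57 untreated and 0.49 after H2O2, against -0.01 and 0.02 over all genes tested.

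**Figure D5:**
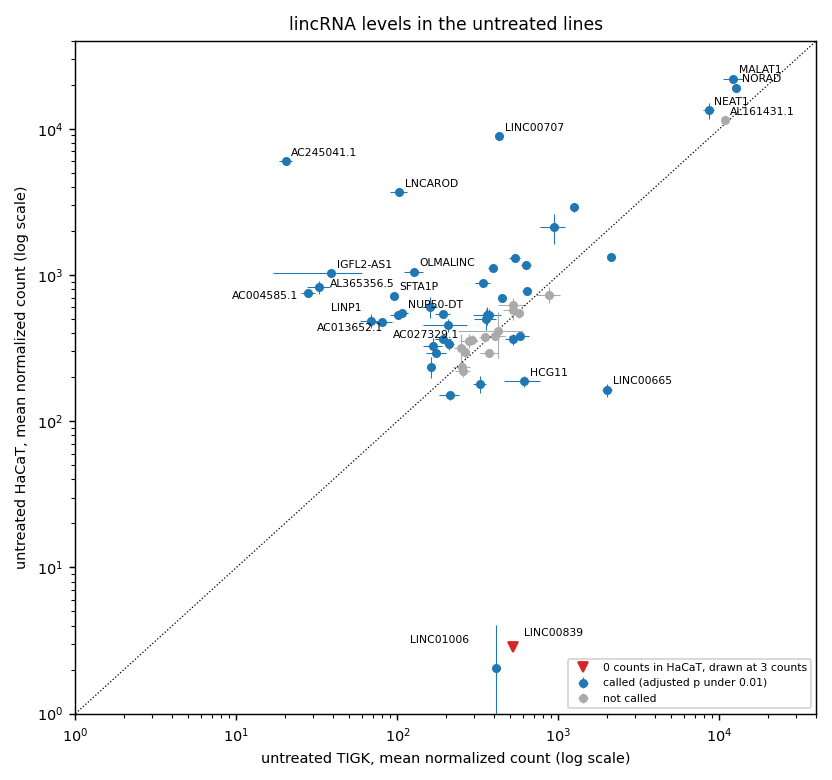
Mean normalized counts of the 58 lincRNAs in untreated TIGK (horizontal) and untreated HaCaT (vertical), both on log scales, with SD of 3 libraries as bars and equality as a dotted line. AC245041.1, LNCAROD and AC004585.1 lie farthest above the line, and LINC00665, LINC01006 and LINC00839 farthest below it, the last drawn at the level of 3 counts because HaCaT had 0.

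Both before and after H2O2, 27 lincRNAs passed as higher in HaCaT and 6 as higher in TIGK. EBLN3P, LINC00665, HCG11, AC005332.6, LINC00839 and LINC01006 were the latter. The matching shares of all genes tested are not given here. Some of these lincRNAs also met the rule on mean counts through HaCaT or TIGK alone, so both numbers are a description only. Among the 27, the treated call of EIF3J-DT (0.46 ± 0.14, edgeR adjusted p = 0.0055) was lost with the groups compared alone, without the filter, without mitochondrial genes, and without HaCaT H2O2 replicate 1 or 2, any single treated TIGK library or TIGK untreated replicate 2, at 0.34 to 0.49 (adjusted p from 0.0106 to 0.0601). The calls of AC125807.2 were lost without HaCaT untreated replicate 1 or 3 or TIGK untreated replicate 1 or 2 (untreated, 0.54, at 0.45 to 0.51, adjusted p from 0.0117 to 0.0176), and without HaCaT H2O2 replicate 1 or 2 or TIGK H2O2 replicate 2 or 3 (treated, 0.58, at 0.44 to 0.53, adjusted p from 0.0109 to 0.0246).

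NEAT1 changed sides as described. NORAD, MALAT1, AC245041.2, LINC01184, MYOSLID and AL390728.6 passed as higher in HaCaT untreated and did not pass after H2O2. The change of the line difference is the difference of responses, which was called for NORAD, AC245041.2 and MYOSLID and not for MALAT1, LINC01184 (0.17 ± 0.12, edgeR adjusted p = 0.4) or AL390728.6 (0.12 ± 0.27, adjusted p = 0.83). The treated difference of MYOSLID, -0.38 (adjusted p = 0.024), passed on the TIGK side with DESeq2, at -0.42 (adjusted p = 0.0087), and without the filter, at -0.41 (adjusted p = 0.0091). That of AC245041.2, 0.30 (adjusted p = 0.05), passed with the groups compared alone, at 0.29 (adjusted p = 0.0041), and without the filter, at 0.27 (adjusted p = 0.002). The untreated call was lost for LINC01184 (0.29 ± 0.08, edgeR adjusted p = 0.0047) without HaCaT untreated replicate 2 or 3 or TIGK untreated replicate 3, at 0.24 to 0.29 (adjusted p from 0.0128 to 0.0268). For MYOSLID (0.50 ± 0.14, adjusted p = 0.0032) it was lost without HaCaT untreated replicate 1 or 2 or TIGK untreated replicate 1 or 3, at 0.40 to 0.50 (adjusted p from 0.0106 to 0.026). The treated call of EPB41L4A-AS1 (0.39 ± 0.10, adjusted p = 0.0031) was lost without HaCaT H2O2 replicate 3, TIGK H2O2 replicate 2 or TIGK untreated replicate 2, at 0.25 to 0.34 (adjusted p from 0.0108 to 0.0584). For AL390728.6 the untreated call (0.67 ± 0.19, adjusted p = 0.0042) was lost without HaCaT untreated replicate 2 or TIGK untreated replicate 1 or 3, at 0.60 to 0.66 (adjusted p from 0.0141 to 0.0206). The treated difference of AL390728.6, 0.55, passed without HaCaT H2O2 replicate 2, at 0.71 (adjusted p = 0.0022). The untreated call of LINC02001 (0.54, adjusted p = 0.0023) was lost without HaCaT untreated replicate 2, at 0.42 (adjusted p = 0.0198).

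After H2O2, AC008124.1, CRNDE and AC006058.1 passed as higher in HaCaT and AC005261.1 as higher in TIGK, with no call in the untreated lines. The difference of responses was called for AC006058.1 and not for AC008124.1 (edgeR adjusted p = 0.65), CRNDE (0.43) or AC005261.1 (0.036). The treated call of AC008124.1 (0.52, edgeR adjusted p = 0.0026) was lost without HaCaT H2O2 replicate 1 or 2 or TIGK H2O2 replicate 1 or 2, at 0.40 to 0.49 (adjusted p from 0.0119 to 0.025), and its untreated difference passed, at 0.48, without TIGK untreated replicate 2 (adjusted p = 0.0087). That of AC005261.1 (-0.44, adjusted p = 0.0033) was lost without HaCaT H2O2 replicate 3 or TIGK H2O2 replicate 2, at -0.41 in both (adjusted p = 0.0116 and 0.0134). PVT1, AC015813.1 and AC026401.3 passed as higher in TIGK untreated and had no call after H2O2, and the difference of responses was not called for any of them (edgeR adjusted p = 0.31, 0.012 and 0.28). The call of AC026401.3 (-0.50 ± 0.16, edgeR adjusted p = 0.0092) was lost when any single library other than HaCaT H2O2 replicate 3, TIGK H2O2 replicate 1 or TIGK untreated replicate 2 was left out, at -0.54 to -0.38 (adjusted p from 0.0104 to 0.0621). No line difference was called for 11 lincRNAs in either state, among them AL161431.1, LINC00941 and MUC20-OT1.

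An untreated difference of over 8-fold was seen for 7 lincRNAs on the HaCaT side and 3 on the TIGK side, against 2.09% and 6.75% of all genes tested. Of these 10, 9 had a mean raw count under 200 in their lower line and so met the limit through the line where they are high, and nothing is read from their number. AC245041.1 (chr10:47970043-47973496, minus strand) had 5882, 5867 and 6247 normalized counts in untreated HaCaT and 22.4, 18.7 and 19.9 in untreated TIGK, a log2 difference of 8.20 ± 0.15 (edgeR adjusted p = 1.2e-18). After H2O2 it had 4320, 3633 and 3565 in HaCaT and 2.32, 16.2 and 11.9 in TIGK. It lies within the span of AC245041.2 on the same strand, which differed by 1.19 ± 0.14 only. Their transcripts aligned over 14 bases only. LNCAROD (chr10:52450874-52755409, minus strand), whose values are given above, differed by 5.16 ± 0.09, and LINC00707 by 4.38 ± 0.07.

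AC004585.1, next to the focal adhesion gene TNS4, had 740, 787 and 720 normalized counts in untreated HaCaT and 30.5, 24.9 and 28.2 in untreated TIGK, a difference of 4.74 ± 0.18. IGFL2-AS1 had 1069, 981 and 1021 against 49.8, 52.9 and 13.6, a difference of 4.72 ± 0.23, and TIGK replicate 3 stood low. AL365356.5 had 921, 751 and 804 against 26.4, 36.3 and 35.5, a difference of 4.65 ± 0.17. After H2O2 its change in HaCaT, -0.34 ± 0.13, missed the limit (edgeR adjusted p = 0.032) and passed without HaCaT H2O2 replicate 3, at -0.48 (adjusted p = 0.0058). OLMALINC completed the 7, at 3.05 ± 0.12. LINP1, which binds the Ku proteins of DNA end joining, had 546, 480 and 439 against 78.3, 60.1 and 65.9, a difference of 2.84 ± 0.20, and passed in neither response.

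On the TIGK side, LINC00839 (chr10:42475543-42495336, plus strand) had 0 counts in all 6 HaCaT libraries. In TIGK it had 501, 512 and 555 normalized counts untreated and 462, 463 and 465 after H2O2. Set against a floor of 3 counts per library, which covers counting error only, it was at least 183-fold higher in untreated and at least 138-fold higher in treated TIGK. Its promoter is shown as that of the lincRNA with the most complete line difference. None of the AP-1 site TGACTCA, the cAMP response element TGACGTCA, the E-box CACGTG or the antioxidant response element was found in these 300 bases, which says nothing about the factors.
LINC00839, chr10:42475241-42475540 (plus strand, GRCh38.p14, RefSeq): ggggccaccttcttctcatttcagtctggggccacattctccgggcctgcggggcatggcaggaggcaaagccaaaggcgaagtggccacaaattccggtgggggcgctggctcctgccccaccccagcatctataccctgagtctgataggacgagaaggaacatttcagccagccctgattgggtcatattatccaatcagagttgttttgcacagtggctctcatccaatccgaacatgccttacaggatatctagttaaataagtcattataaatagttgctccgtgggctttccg

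LINC01006, whose start lies 373 bases from that of RNF32 on the other strand, had 0, 2.21 and 3.95 normalized counts in untreated HaCaT and 439, 400 and 393 in untreated TIGK. After H2O2 it had 6.68, 11.7 and 2.14 in HaCaT and 443, 474 and 481 in TIGK. With at most 10 raw counts in a HaCaT library, its HaCaT change of 1.78 ± 0.69 missed the limit (edgeR adjusted p = 0.041) and passed without HaCaT H2O2 replicate 3, at 2.21 (adjusted p = 0.0087). LINC00665 differed by -3.62 ± 0.09 (adjusted p = 6.4e-17) in the untreated lines. AC005332.6 differed by -0.87 ± 0.14, with 160, 170 and 205 in untreated HaCaT and 305, 312 and 359 in untreated TIGK. EBLN3P, a fossil of a bornavirus nucleoprotein gene, had 1401, 1260 and 1306 against 2123, 2124 and 2109, a difference of -0.68 ± 0.06.

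The 29 lincRNAs with no call in either response included highly expressed ones. AL161431.1, on chromosome 13, had 9213 to 11960 normalized counts over all 12 libraries, with changes of -0.16 ± 0.07 in HaCaT (edgeR adjusted p = 0.057) and -0.16 ± 0.07 in TIGK (adjusted p = 0.074). Without HaCaT H2O2 replicate 1 its HaCaT change was -0.28 and passed (adjusted p = 0.0011). FP236383.3, on chromosome 21, scattered most within groups, with 275, 558 and 406 in untreated HaCaT, 335, 568 and 253 in treated HaCaT, 626, 282 and 349 in untreated TIGK and 165, 551 and 336 in treated TIGK. Its standard error of 0.36 leaves changes of ordinary size undetectable.

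A neighbour was taken for each lincRNA as the nearest protein-coding gene or, for the 4 that start head to head within 1000 bases of one, as that gene, and it was tested for 48 of the 58. In HaCaT, 8 pairs were called in the same direction and 2 in opposite ones, 16.7% and 4.17% of the pairs, against 8.98% and 5.09% of 12865 such pairs over all autosomal genes tested. In 10 pairs the lincRNA alone was called and in 15 the neighbour alone. In TIGK the numbers were 3 and 5, or 6.25% and 10.4% against 4.14% and 2.45%. Between the untreated lines they were 21 and 8, or 43.8% and 16.7% against 28.8% and 11%, and between the treated lines 20 and 4, or 41.7% and 8.33% against 28.4% and 11.7%. With the rule bearing on the line differences, and more of the 58 called than of all genes, these shares are a description only. NEAT1 and its neighbour FRMD8 both fell in HaCaT, the latter by 0.68. A total of 9 lincRNAs started within 1000 bases of the start of a protein-coding gene on the other strand, 4 of them head to head with it. Of these 4, NUP50-DT and EIF3J-DT had no call in either response, while NUP50 changed by -0.38 in HaCaT, past the limit.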

How the data were processed

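RNA from 12 libraries in 4 groups was measured by poly(A) sequencing. The deposited file used here holds the authors' raw counts for every gene and library, not normalized, on GRCh38. The submitters' notes name HISAT2 2.0.5 and 2.0.0, StringTie 1.3.3b, featureCounts 1.5.0-p3 and DESeq2. The annotation release and the use of strand are not given in the sources used here. Tables of the authors' own DESeq2 fold changes and p-values were not used. No line lacked a gene, and all sample columns were used.

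The 16618 genes whose raw counts averaged 10 or more entered the quasi-likelihood test of edgeR 4.0.16 in R 4.3.3, with TMM scaling and 1 mean per group over all libraries (common dispersion 0.0073, 10.4 prior degrees of freedom). Benjamini-Hochberg adjustment ran over all genes tested, with a limit of 0.01. Values after ± are standard errors of the log2 fold change, taken from the F statistic. The fit was run on simulated counts with known changes in treated TIGK and the same dispersion for every gene. Those counts lack the uneven spread of the real libraries, so that run does not bear on the p-values given here. Nothing states that replicates came from separate cultures, so p-values measure the spread between these libraries, which may be technical. Replicate libraries varied beyond counting error (chi-square per degree of freedom 4.57 to 30.3).

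The members and gene lists were chosen with earlier results of these data known. Members named with values were those of role lists, the 5 highest per kb, the 5 largest called changes in each direction of each comparison with at least 100 normalized counts and no overlap of libraries, and those next to the limit. Others named for context (among them AC104024.2, AC005261.1, AC015813.1, LINP1, EBLN3P, FP236383.3 and neighbour genes) were chosen after their values were seen. Sequences came from GRCh38 and RefSeq, and transcripts from GENCODE release 44 were aligned with Biopython 1.88. Alternatives were DESeq2 1.42.0, RLE scaling, no filter, no mitochondrial genes, groups compared alone, a replicate block, each library left out, and other limits. The values of a few single genes are not reported here.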

Additional observations from a re-analysis of the deposited data

Results flagged for a closer look

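The responses to H2O2 differed between the lines by the test of the difference itself, TIGK minus HaCaT on the log2 scale, for 8 lincRNAs. The differences were 1.32 for NEAT1, 0.89 for AC245041.2, 0.88 for MYOSLID, 0.82 for AC013652.1, 0.72 for LNCAROD, 0.60 for NORAD and 0.51 for LINC00958, each with the lower value in HaCaT. For AC006058.1 the difference was -1.46, with the deeper fall in TIGK. Those of AC245041.2, MYOSLID, AC013652.1 and AC006058.1 passed or missed the limit depending on single libraries, as given with their values above. Groups of 3 libraries were not searched for outliers.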

How the results depend on the processing

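No called change among the 58 lincRNAs turned its direction under any alternative run. The counts moved by less than 1.5 times under RLE scaling, without mitochondrial genes, with the groups compared alone and without the filter on low counts. With DESeq2, 2 differences of responses below 0 were called in place of 1. At a limit of 0.05 the number was 3. With calls also past 1 on the log2 scale, the numbers higher and lower were 0 and 5 in HaCaT, 20 and 4 between the untreated lines and 18 and 4 between the treated lines. Under it 0 rises remained in TIGK and 1 difference of responses above 0. With members of a mean of at least 500, the numbers were 3 and 10 in HaCaT, 15 and 2 untreated and 10 and 4 treated, with 3 falls in TIGK and 0 differences below 0. With the 23 members without an overlapping gene, they were 3 and 8 in HaCaT, 2 and 2 in TIGK, 12 and 4 untreated, 12 and 5 treated, and 3 and 0 for the differences. An alternative added after the data were seen kept the 32 members at the limit in each line, with 1 rise in HaCaT, 15 and 3 untreated and 12 and 3 treated. These last 3 settings count fewer genes by construction.

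With each library left out in turn, the numbers ranged from 4 to 6 rises and 16 to 20 falls in HaCaT, 5 to 6 and 9 to 10 in TIGK, 30 to 34 and 8 to 9 between the untreated lines, 26 to 30 and 6 to 10 between the treated lines, and 4 to 9 and 0 to 1 for the differences of responses. The replicate numbers did not pair the samples, with correlations of same-numbered deviations from -0.121 to 0.0257. With the replicate block the numbers were 6 and 17 in HaCaT, 5 and 9 in TIGK, 34 and 9 untreated, 30 and 8 treated, and 7 and 0 for the differences, where AC006058.1 had an adjusted p of 0.0149. The block also ended the TIGK rise of LINC00665 (adjusted p = 0.0162) and the HaCaT fall of AC005261.1 (0.0103). Without the filter on low counts, NEAT1 and MALAT1 also passed as falls in TIGK (edgeR adjusted p = 6.1e-10 and 0.00033). AL161431.1, HCG11 and AL390728.6 passed as falls in HaCaT (0.0098, 0.004 and 0.0027). MALAT1 and AC005261.1 passed as differences of responses (1.3e-16 and 0.0041), and AC083843.2 and AL390728.6 between the treated lines (0.0086 and 0.0055). The cause was not tested. The TIGK falls of NEAT1 and MALAT1 were no larger in that fit than in the main one. Its p-values are therefore not read as a measure of the spread between these libraries. With the groups compared alone, the calls of LINC02001 in HaCaT (0.0145), of LINC01184 and AC026401.3 between the untreated lines (0.0103 and 0.0102) and of EPB41L4A-AS1 between the treated lines (0.0127) were lost. The depth limits what can be said of LINC00839 and LINC01006 in HaCaT.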
